A study of Homo sapiens with 16 samples.

Results

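NCI-H23 (H23) is an established human lung adenocarcinoma line, known to carry a mutation of STK11. Its members here were chosen by title and were the 2 arrays of H23 among 16 arrays of 8 lung cancer lines. The other 14 arrays came from A427, A549, H358, H460, H661, H1437 and H1703. Each line gave 1 array from untreated cells on plastic (2D) and 1 from cells laid on a thin coat of Matrigel under medium with 2% Matrigel (3D). Medium and plating density were alike in both cultures, and 200 ng of total RNA per sample went onto an Affymetrix U133 Plus 2.0 array. Every line is a tumour line with no normal lung cells beside it, and H23 gave 1 RNA per culture. A difference between 2D and 3D within H23 therefore had no replicate check.

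Matrigel is an extract of basement membrane, rich in laminin and collagen IV, and cells placed on it can round up into clusters and lose the flat spreading they show on plastic. Growth factor signals run through the ERK kinases, whose output is read from feedback genes such as the Sprouty and DUSP families and from immediate early genes such as EGR1. STK11 encodes LKB1, a kinase that activates AMPK and the salt-inducible kinases, and the latter restrain the CRTC coactivators of the transcription factor CREB.

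All values are log2 ratios of a probe set to its own reference, averaged over the probe sets of a gene. A value of 0 is the reference, a value of 1 is 2-fold over it, and values of different genes cannot be ranked against each other. Identity was read as the mean of the 2 H23 arrays minus the mean of the other 7 lines. It was tested with limma over the 8 line means, so that its error is the spread between lines. An exact permutation of 1 line against 7 has 8 arrangements and a smallest p of 1 in 8. No gene was therefore tested by permutation.

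Both H23 arrays were closest to each other, with a correlation across genes of 0.832, as each of the 16 arrays was closest to its own line (0.795 to 0.946 in the other lines). The array of another line closest to H23 was A427 in 3D, with a correlation of 0.132. Array medians lay between -0.28 and -0.07.

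The ribosomal RNA controls separated the 2 H23 arrays from each other. The 18S probe sets read 2.46 in H23 2D and -0.99 in H23 3D. In the other lines they read 0.01 to 1.24 in 2D and -0.80 to 0.05 in 3D, so H23 held both the highest and the lowest value of the series. The 3D minus 2D difference was -3.45 in H23 and ran from -1.61 in H460 to -0.08 in H1437. The 28S probe sets read 2.69 and -0.97 in H23, a difference of -3.66 beside -1.31 to 0.83 elsewhere. RNA45SN5, the ribosomal RNA precursor gene, read 1.53 in 2D and -0.10 in 3D. Its difference of -1.63 lay outside the range of -0.33 to 0.57 in the other lines.

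The poly-A spikes, RNAs added to a sample before labelling, were lower in H23 3D (-1.04) than in any other 3D array (0.00 to 0.99). Those of H23 2D (-0.57) also lay below every other 2D array (-0.37 to 0.28). The hybridisation spikes were at -0.02 in both H23 arrays. The ACTB controls read 0.30 and 0.28 and the GAPDH controls 0.25 and 0.28. The difference between the 3′ and 5′ probe sets, a sign of RNA breakage when large, was -0.11 and -0.19 for ACTB and -0.05 and -0.06 for GAPDH. The controls of messenger RNA thus lay close together in both H23 arrays while those of ribosomal RNA did not. The part of the ribosomal RNA difference in the culture values of single genes was not tested.

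**Figure D1:**
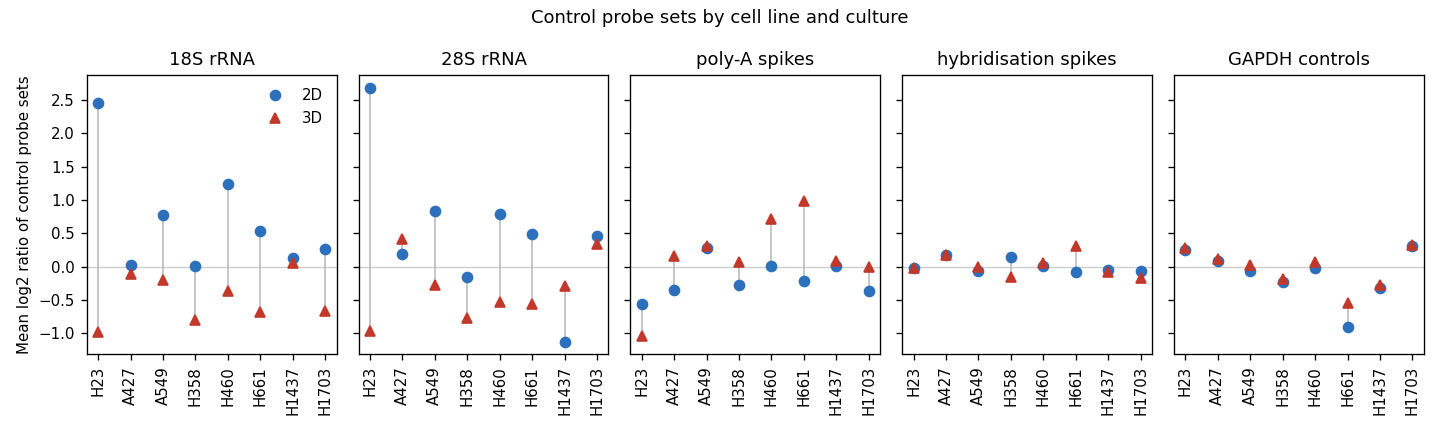
Mean log2 ratio of 5 groups of control probe sets in each line, with a blue circle for 2D, a red triangle for 3D and a line joining them. H23 at the left spans 2.46 to -0.99 for 18S, wider than any other line, and its GAPDH controls lie together at 0.25 and 0.28.

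Among called genes, H23 was highest above the other lines for SPOCK2, RYR1, UBE2QL1, NPY and CXCR4, and lowest below them for SCOC and SH3BGRL. Of 15952 genes tested, 34 were higher in H23 (0.213%) and 4 lower (0.0251%) by limma at an adjusted p under 0.05. Among all genes tested, 826 (5.18%) lay above all 14 other arrays in both H23 arrays and 488 (3.06%) lay below them. The other lines had 554 to 1201 genes above and 304 to 1957 below, so H23 was not extreme in either count. Of the 34 higher genes, 19 passed the filter on dim genes only through the H23 arrays, and such genes had to be high in H23. Among those named below they were RYR1, RYR3, RYR3-DT, UBE2QL1, NPY, OLFML3, SLC1A6, WNT2, ADGRE2, SLC18A3, UTS2, POU3F3, DOK5 and TEX14. Their values are a description, given without a p. The other 15 higher genes, CXCR4, SPOCK2 and CRH among them, and the 4 lower genes passed the filter without the H23 arrays. They did so through at least 1 probe set, and the gene average may also hold probe sets that passed only through H23. In CXCR4 and ERG the average reached the reference in 0 of the 14 other arrays, and in HAS2, LRP2 and PRRX1 in 1. The values of these genes too are a description.

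SPOCK2, which encodes the matrix proteoglycan testican-2, showed the widest called difference. It read 7.04 in H23 2D and 6.87 in 3D, beside -0.35, -0.01 and 0.57 as the lowest, median and highest of the other 14 arrays. The difference was 6.92 ± 0.63 (SE, 8 line means; limma adjusted p = 0.00442), and its 2 probe sets gave 4.93 and 8.91.

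NPY, the peptide transmitter neuropeptide Y, read 4.03 and 5.08 in H23 and -1.30, -1.21 and -0.68 elsewhere. No other array reached the reference of the gene, and H23 lay 23.5-fold over that reference. CRH, the corticotropin-releasing hormone, read 3.99 and 3.95 against a highest other value of 1.06 in H661. The 2 probe sets of CRH both placed H23 higher, by 2.26 and 6.32. UTS2, which encodes the vasoactive peptide urotensin, was higher by 3.10. SLC18A3, the vesicular transporter of acetylcholine, was higher by 2.37.

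The ryanodine receptor genes RYR1 and RYR3 encode calcium release channels of the endoplasmic reticulum. RYR1 read 4.62 and 5.15 in H23 and -1.20, -1.06 and -0.63 elsewhere, which put H23 29.5-fold over the reference. RYR3 read 3.82 and 4.02 and stayed at or under -0.98 in every other array. Its divergent transcript RYR3-DT lay 2.10 above the other lines. SLC1A6, a glutamate transporter of neurons, read 3.64 and 4.36 and at most -0.55 elsewhere.

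CXCR4, the receptor for the chemokine CXCL12, read 4.72 in 2D and 4.49 in 3D. The other arrays read -1.21, -1.12 and -0.54 as lowest, median and highest. With dim values set to the reference, H23 lay 23.8-fold over the mean of the other arrays. All 3 of its 3 probe sets placed H23 higher, by 5.28 to 6.27. ADGRE2, an adhesion receptor known from myeloid cells, read 3.67 and 3.48 beside a highest other value of 0.12. These receptors were high in both H23 cultures. A lack of overlap with any other array was a condition for naming them.

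WNT2, a secreted WNT ligand, read 4.36 and 3.86 and at most -0.78 elsewhere. OLFML3, a secreted olfactomedin-domain protein, read 4.40 and 4.55 and at most -0.23. UBE2QL1, related to ubiquitin-conjugating enzymes, read 4.28 and 5.30 and at most -1.0. ST8SIA6-AS1, a long noncoding RNA antisense to a sialyltransferase gene, read 4.75 and 4.21 and at most 0.41. For these too, a lack of overlap between H23 and the other arrays was a condition for naming. Both H23 arrays lay above all others in 5.18% of all genes.

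Called transcription factors included PRRX1, a homeobox factor of limb and craniofacial mesenchyme, at 2.88 and 4.22 in H23 and at most 0.33 elsewhere. HOXD10, a factor of positional identity, was at 3.28 and 3.14 and at most 0.62. ERG, an ETS factor known from endothelial cells, was at 1.81 and 2.69 and at most -0.35. POU3F3 and RORB, a neural POU factor and a nuclear receptor, were higher by 2.67 and 1.86, and POU3F3 passed the filter only through H23. HAS2, the synthase of the matrix polymer hyaluronan, read 3.65 and 2.76 and at most 0.09 elsewhere. LRP2, the endocytic receptor megalin, read 4.28 and 2.40 and at most 0.32. The other called higher genes lay 1.98 to 4.25 above the other lines, and among them were DOK5, KCNK15, TEX14, ALOX12B and the DNA repair factor ERCC6.

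**Figure D2:**
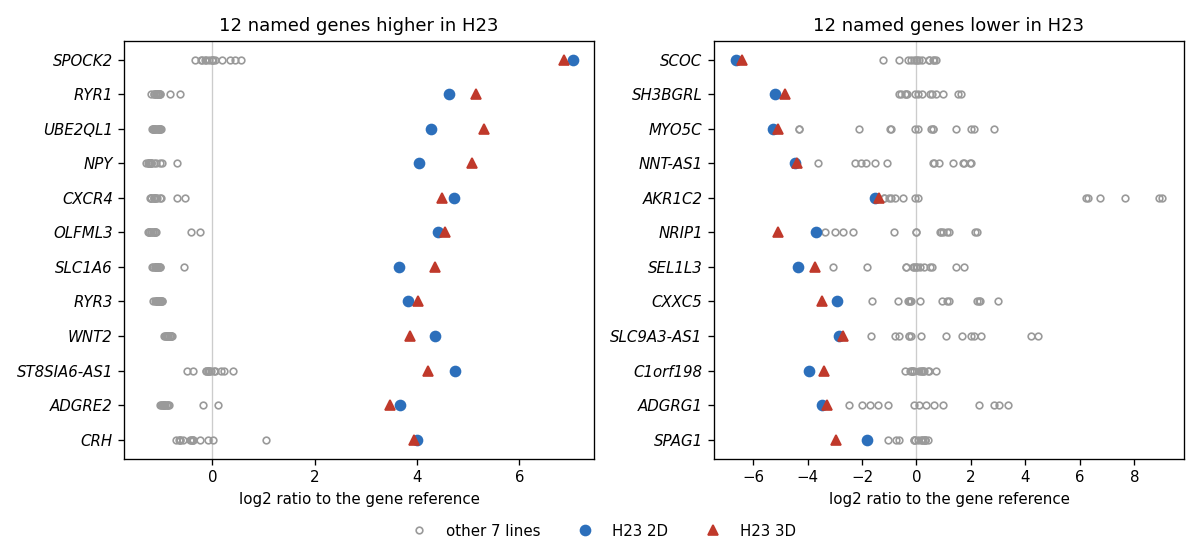
Log2 ratio to the gene reference in the 16 arrays for the 12 named genes higher in H23 (left) and the 12 lower (right), with blue circles for H23 2D, red triangles for H23 3D and open circles for the 14 arrays of the other lines. For CXCR4 the H23 arrays sit at 4.72 and 4.49 and every other array at or under -0.54, while MYO5C on the right has another array near H23 at -4.33.

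With the 18S level as a covariate, 16 of the 38 calls held, of which 11 were genes that passed the filter only through H23. Of the 15 other higher genes 5 held, namely CXCR4, ERG, HAS2, LRP2 and PRRX1 (at most 1 other array at the reference in each). SPOCK2 did not (limma adjusted p = 0.138, its highest over the alternatives). With a filter on the median over all 16 arrays, 9 of the 38 were still tested and 2 stayed called, SPOCK2 and C1orf198.

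Some of the widest differences were not called because another line also expressed the gene. CCL20, a chemokine that draws CCR6-bearing lymphocytes, read 8.23 and 7.39 in H23 and 6.99 in its highest other array, from A427. SCG2, the secretogranin of dense-core vesicles, read 6.72 and 9.24 in H23 and 4.88 at most elsewhere, in H460. CCL5, another chemokine, read 5.81 and 4.6 and at most 3.32. GATA3, a zinc finger factor of lymphoid and epithelial lineages, read 4.85 and 3.62 and at most 1.55. NOS3, the endothelial nitric oxide synthase, read 4.34 and 3.75 and at most 2.25. H23 was above all other arrays in each of these, yet limma adjusted p-values were 0.266 to 0.992.

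CGA encodes the alpha subunit shared by the pituitary and placental glycoprotein hormones, and its promoter is a textbook case of response to cAMP and CREB. It was singled out after its values were seen. CGA read 2.95 in H23 2D and 3.78 in 3D, and all 14 other arrays lay between -1.66 and -1.52. The difference was 4.94 ± 0.95 (SE, 8 line means) and was not called. CGA too passed the filter only through the H23 arrays, so no p is given. The RefSeq promoter, the 250 bases before the start on the minus strand of GRCh38.p14 at chr6:87095107-87095356, is printed to show the sequence that CREB is known to bind. Capitals mark the motif TGACGTCA, which reads the same on both strands:
CGA: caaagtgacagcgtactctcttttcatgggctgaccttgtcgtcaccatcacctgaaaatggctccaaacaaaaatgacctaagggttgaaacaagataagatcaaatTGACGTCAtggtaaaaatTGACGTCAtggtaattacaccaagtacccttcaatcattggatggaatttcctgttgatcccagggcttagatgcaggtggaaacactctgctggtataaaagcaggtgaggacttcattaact
The motif occurred 2 times, 142 and 124 bases before the start. Of 27305 RefSeq promoters of 250 bases, 482 (1.77%) held it at least once. A match is a description of the letters and not of binding.

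Other genes linked to LKB1 loss and CREB were mixed in H23. The STK11 state of the other 7 lines is not given here, so this is no contrast of mutant with intact lines. Of 22 tested, 7 were at least 2-fold higher than the mean of the other lines and 8 at least 2-fold lower. Over all genes these shares were 7.99% and 8.66%, which also stand beside the list counts below. CRTC2, a CREB coactivator, read 1.90 and 1.83 and at most 1.10 elsewhere. NR4A2, a nuclear receptor that CREB induces, read 3.27 and 2.44, with A427 reaching 2.78. The fibrinogen gene FGG read -0.35 and -0.64, while H1437 reached 11.69. INSL4, a placental insulin-like peptide, was likewise under the reference in H23 (-0.80 and -0.70) and at 6.08 in H1437. No member of the list was called.

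The 4 genes called lower included SCOC, a short coiled-coil protein of the Golgi and of autophagy. It read -6.64 and -6.40 in H23 and -1.22, 0.05 and 0.72 elsewhere, a difference of -6.58 ± 0.68 (SE, 8 line means; limma adjusted p = 0.00856). The value in H23 2D is the lowest ratio that the deposited values hold. SH3BGRL, a small adaptor-like protein, read -5.20 and -4.82 and at least -0.65 elsewhere. C1orf198, whose function is little known, read -3.95 and -3.40 and at least -0.42. SPAG1, an assembly factor of ciliary dynein arms, read -1.83 and -2.94 and at least -1.04. All 4 lower calls were lost with the 18S covariate, while each difference kept its sign. SH3BGRL and SPAG1 were also lost when 1 of several other lines was left out.

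The low side was completed by size with genes that were not called, since other lines varied widely in them. MYO5C, an unconventional myosin of secretory epithelia, read -5.28 and -5.08 in H23, and H1703 reached -4.33. NRIP1, a nuclear receptor corepressor, read -3.70 and -5.08 beside a lowest other value of -3.36. CXXC5, a CXXC zinc finger protein, read -2.90 and -3.48 beside -1.65. ADGRG1, an adhesion receptor, read -3.45 and -3.28 beside -2.48. SEL1L3 read -4.34 and -3.71 beside -3.07.

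Epithelial genes were lower in H23 than in most lines. Of 25 junction and keratin genes tested, 9 were at least 2-fold lower and 4 at least 2-fold higher, with a median difference of -0.71 beside 0.01 over all genes. The mean over the list was the third from the lowest of the 8 lines. KRT19, a keratin of simple and ductal epithelia, read -2.78 and -3.60 beside a median of 2.53 elsewhere. EPCAM, an epithelial adhesion molecule, read -2.79 and -2.46 beside a median of 1.25. ESRP1, an epithelial splicing factor, read -0.77 and -0.66, and H358 reached 8.49. The ESRP1 difference of -3.69 changed sign in 1 of 18 alternatives, to 1.61. The keratins of simple epithelium KRT8 and KRT18 did not share this and were 2.02 and 2.29 above the mean of the other lines. None of the 25 was called.

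Lung differentiation genes lay toward the low end of the 8 lines in H23, with a mean of -0.05 beside -0.14 in H1703 to 1.42 in H1437, the second from the lowest. Of 16 tested, 4 were at least 2-fold lower, where 8.66% of all genes were, and 0 higher. The median difference was -0.32, none was called, and none lay below all 14 other arrays. NKX2-1, the lineage factor of distal lung, read 0.57 and 1.40, with H358 reaching 5.40. SFTPB, a surfactant protein, lay at 0.03 and 0.08, and at most 0.41 elsewhere. Because levels of different genes cannot be compared, these ratios do not say whether a marker is expressed.

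Mesenchymal genes leaned higher, with 8 of 23 at least 2-fold higher, 4 lower and a median of 0.71. PRRX1, above, was the only member called. TWIST1, a factor that drives mesenchymal state, read 1.80 and 2.06, above a highest other value of 1.27. CDH11, a cadherin of mesenchyme, read 4.50 and 4.55, with H460 at 8.11. TGFBI, a matrix protein induced by TGF-beta, went the other way, at -4.97 and -6.53 beside a median of 0.96.

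Neuroendocrine and neuronal genes had the highest mean level in H23 of the 8 lines, at 1.05 beside -0.78 to 0.95. The members split, since 6 of 20 were at least 2-fold higher and the median was 0.07. NEFL, the light neurofilament, read 4.52 and 4.70, and CHGB, a granin of secretory granules, 3.11 and 4.71. The NEFL difference of 4.18 changed sign in 1 of 19 alternatives, to -1.79. CHGA, the classical granin marker, read -0.18 and -0.23. SCG2, named above, was the only member above all 14 other arrays.

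Markers of other cell types were mostly near their reference in H23. Of 11 leukocyte markers tested, 1 was at least 2-fold higher, the integrin ITGAM (0.79 and 1.68). The pan-leukocyte PTPRC read -0.52 and -0.36. Of 14 fibroblast and smooth muscle markers, 0 were at least 2-fold higher and 5 at least 2-fold lower, with a median difference of -0.38 and a mean level second from the lowest of the 8 lines. The 5 erythroid and platelet markers held 0 past 2-fold in either direction. Of 11 endothelial markers, ERG and EGFL7 were at least 2-fold higher, and the defining PECAM1 (-0.04 and 0.04) and CDH5 (0.30 and -0.05) were near the reference. The endothelial list averaged 0.35 in H23 and -0.28 to -0.07 elsewhere.

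Genes of ERK output were higher as a group in H23 than in any other line. Of 20 tested, 10 were at least 2-fold higher and 0 lower, with a median of 1.04 beside 0.01 over all genes. The mean over the list was 0.69 in H23 and -0.77 to 0.39 elsewhere, and H23 ranked the seventh or the eighth from the lowest over the alternatives. SPRY1, a Sprouty feedback inhibitor, read 1.68 and 2.39, with H358 at 2.28. SPRY4, of the same family, read 1.19 and 1.14, and ETV4, an ETS factor downstream of ERK, 1.46 and 1.28. DUSP6, the ERK phosphatase, read 0.06 and 0.47. None was called.

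Immediate early genes were high as well. Of 18 tested, 6 were at least 2-fold higher, 0 lower and 5 above all 14 other arrays, where 5.18% of all genes were. FOS, a subunit of AP-1, read 3.52 and 3.89 in H23 and at most 2.21 elsewhere, in H1437. EGR1, a zinc finger factor shared with the ERK list, read 2.92 and 2.94 and at most 2.42. IER3, also on both lists, read 1.98 and 2.14 and at most 1.11. The H23 arrays were above every other array in all of these, but limma adjusted p-values were 0.372 for FOS and 0.950 for EGR1.

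The NF-kB and cytokine list was divided, with 10 of 21 at least 2-fold higher and 5 lower. CCL2, which draws monocytes, read 7.12 and 5.41, and A549 reached 6.29. ICAM1, an adhesion receptor for leukocytes, read 4.94 and 4.48, and A427 reached 5.65. On the low side, IL6 read -0.18 and -0.29 while H460 reached 9.69. PTGS2, the inducible cyclooxygenase, read -2.09 and -2.61. High chemokine values in H23 thus stood beside low IL6 and PTGS2.

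Targets of NRF2, the regulator of antioxidant genes that is released when KEAP1 is lost, were low. Of 22 tested, 11 were at least 2-fold lower and 0 higher, with a median of -1.08. H23 ranked the second from the lowest of the 8 lines. The aldo-keto reductase AKR1C3 read -3.56 and -3.47 in H23 and up to 9.42 in H1437. AKR1B10 read -0.27 and -0.87 and up to 11.67 in A549. SLC7A11, the cystine transporter, read -3.29 and -3.22, and H661 was lower still at -4.39. The wide spread between the other lines left every member uncalled.

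Interferon-stimulated genes were low as well, with 15 of 30 at least 2-fold lower, 3 higher and a median of -0.96. BST2, the membrane protein tetherin, read -1.03 and -0.98 and up to 7.47 in H358. The BST2 difference of -3.24 changed sign in 1 of 18 alternatives, to 1.37. IFIT3 read -2.31 and -2.57. ISG15, the ubiquitin-like modifier, read 0.36 and 0.33, so the list did not move as a whole.

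Biosynthetic lists went both ways. The mean of ATF4 targets and the amino acid response was -0.39 in H23, the same as in H358 at this rounding and under the other 6 lines. PHGDH, the first enzyme of serine synthesis, read -2.80 and -2.16, below every other array (-1.98 at the lowest). TRIB3, a pseudokinase of the stress response, read -2.66 and -1.97 beside -1.70. Of 18 cholesterol synthesis genes, 5 lay below all 14 other arrays, where 3.06% of all genes did. Among these MSMO1 read -2.65 and -1.78 beside a lowest other value of -1.10. SQLE, a rate-controlling enzyme, read -0.83 and -0.82 beside -0.76. Fatty acid synthesis had a median difference of -0.01. Ribosome biogenesis and MYC genes had their highest mean in H23, 0.41 beside -0.64 to 0.31 elsewhere, with a median difference of 0.47.

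**Figure D3:**
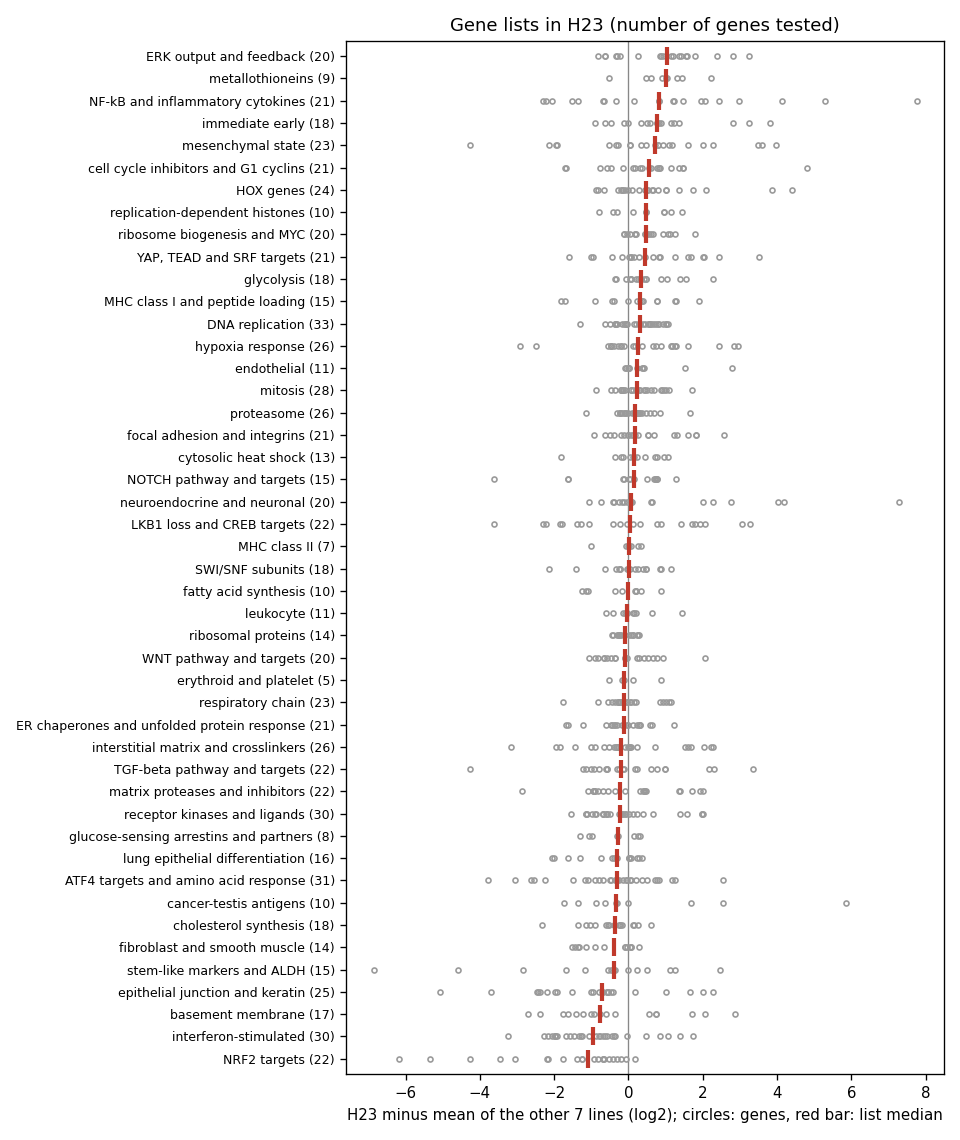
H23 minus the mean of the other 7 lines (log2) for the genes of 46 gene lists, ordered by list median, with an open circle per gene and a red bar at the median. ERK output stands at the top with a median of 1.04 and NRF2 targets at the bottom with -1.08, while most lists have medians near 0.

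Further members stood out by size. HOXC10 read 5.67 and 5.14 in H23, with H1703 at 6.10, and HOXD11 read 1.85 and 1.59 beside a highest other value of 0.56 (limma adjusted p = 0.0650). Of 24 HOX genes, 7 were at least 2-fold higher and 0 lower. MAGEA4, a cancer-testis antigen, read 4.56 and 4.67, with H1703 at 4.90. CCND2, the G1 cyclin D2, read 5.25 and 5.0, with H1703 at 6.35. SMARCA2, an ATPase of the SWI/SNF remodeller, read -2.20 and -2.55, and A427 was lower at -2.71. ALDH1A1, a retinaldehyde dehydrogenase, read -6.64 in both H23 arrays, a floor that another line also reached.

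Genes low or high in H23 were in part neighbours on chromosomes. Genes were ordered by the RefSeq table of GRCh38.p14, and the runs of 25 neighbours with the lowest and highest median were picked by the H23 values, so what follows is a description. The lowest of 13078 runs was on chromosome 5, from PLEKHG4B to NDUFS6. Its median difference from the mean of the other lines was -1.82 for H23 2D and -1.96 for 3D. Of its 25 genes, 22 were below the mean of the other lines and 15 lay below all 14 other arrays. Over all genes 3.06% lay below all 14, but this run was picked for its low values. Taken the same way, each of the other lines had a median difference of -0.64 to 1.17 in this run. SLC12A7, a potassium-chloride cotransporter, was lower by 3.05 on the log2 scale, read as -2.63 and -2.22 beside a lowest other value of -1.22. LPCAT1, an enzyme of surfactant lipid synthesis, read -2.87 and -2.86 beside -1.18. SDHA, the flavoprotein of respiratory complex II, read -1.44 and -1.44 beside -0.86. MRPL36, a mitochondrial ribosomal protein, read -1.87 and -2.25 beside -0.47. TERT, the telomerase catalytic subunit, lies in the same run and read 0.88 and 0.55. The solute carriers SLC6A18 and SLC6A19 read close to the reference in every line.

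**Figure D4:**
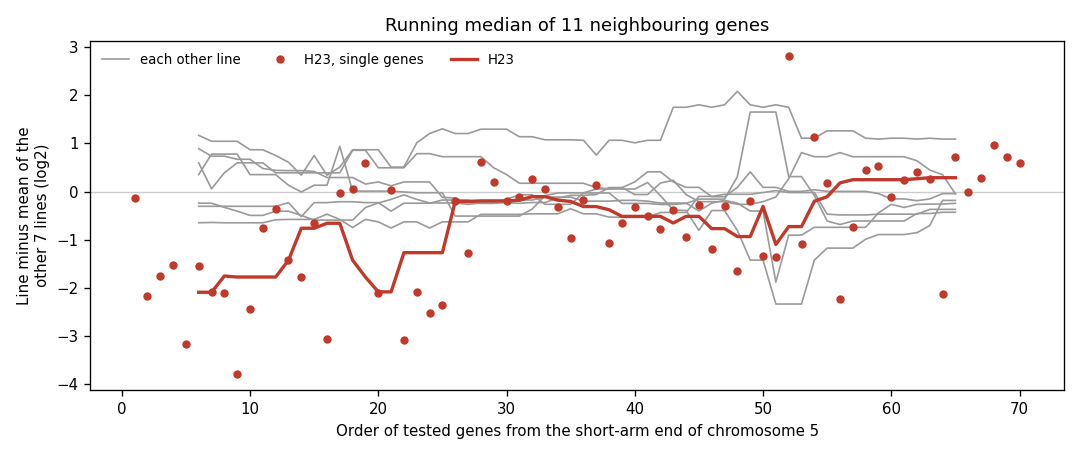
Line minus the mean of the other 7 lines (log2) along the first 70 tested genes of chromosome 5, with red points for single genes in H23, a red line for its running median of 11 genes and grey lines for the other lines. The H23 line lies near -2 at the left, rises in the middle of the low run and falls to about -2 again toward its end. After the 25 genes of the run it comes close to 0, and it dips below 0 again farther along.

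A run on chromosome 4 from CTSO to CLCN3 had a median difference of -1.59 in H23. This run had 8 of 25 genes below all 14 other arrays, where 3.06% of all genes lay. It held FNIP2, a folliculin partner (-2.09 and -2.48), and the glycine receptor subunit GLRB (-2.0 and -2.08). MSMO1, named above, lies in it too. Among the high runs, that on chromosome 9 from ARHGEF39 to EXOSC3 had a median difference of 1.15. It had 19 of 25 genes above all 14 other arrays, where 5.18% of all genes lay. TPM2, a muscle-type tropomyosin, was at 3.41 and 2.75 there, and TLN1, the integrin-binding talin, at 1.58 and 1.30. A run on chromosome 1 from RAP1A to SIKE1 had the highest median difference, 1.27. Each other line had such runs, with lowest medians of -0.96 to -1.73 and highest medians of 1.05 to 2.04. Copy number was not measured on these arrays.

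The response of H23 to Matrigel was read as 3D minus 2D in 14113 genes whose median reached the reference. These values rest on 1 array per culture, so no test within H23 is given. Averages here use those probe sets only, so the 2D and 3D levels of a gene may differ from those given above. At least 2-fold differences numbered 362 higher in 3D (2.57%) and 293 lower (2.08%), 655 in all (4.64%). The other lines had 153 in A427 to 1053 in H661. Quantile normalisation raised the H23 count to 987. The SD of the differences was 0.48 in H23 and 0.31 to 0.56 elsewhere. Across genes, the differences of H23 correlated with those of other lines at 0.0575 in A427 to 0.367 in H1703.

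When H23 was set against the other 7 lines, 0 of 14113 genes were called (0.0%) by limma, with 695 at an unadjusted p under 0.05 and a smallest adjusted p of 0.168. In H23 the difference lay above that of all 7 other lines in 2130 genes (15.1%) and below it in 1328 (9.41%). Taken the same way, the other lines had 1044 to 2647 genes above and 1424 to 3259 below. The share outside in either direction was 24.5% in H23 and 18.4% to 33.8% elsewhere, so H23 was not extreme in it. Quantile normalisation called 25 genes, the filter on at least 2 of 16 arrays 12, and no filter 103. What follows is therefore a description of sizes.

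ALDOC, the aldolase isoform of brain and of hypoxic cells, showed the widest H23 difference. Like each of the 12 highest culture genes named, ALDOC rests on 1 probe set that passed the filter. It read -0.58 in 2D and 3.61 in 3D, a difference of 4.19 or 18.3-fold. The other lines gave -1.34 in H1703 to 1.98 in H460 with a median of 1.41, so 5 of 7 shared the direction. The RefSeq promoter of ALDOC, the 250 bases before the start on the minus strand of GRCh38.p14 at chr17:28576896-28577145, is shown because this gene led the culture response. The core of the hypoxia response element, ACGTG or GCGTG, was sought on both strands and its matches are in capitals:
ALDOC: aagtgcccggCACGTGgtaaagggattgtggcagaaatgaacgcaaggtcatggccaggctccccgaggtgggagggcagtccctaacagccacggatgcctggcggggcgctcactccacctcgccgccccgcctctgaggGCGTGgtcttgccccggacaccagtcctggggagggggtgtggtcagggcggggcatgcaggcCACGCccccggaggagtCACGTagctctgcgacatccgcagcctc
There were 5 matches, of which the pair farthest from the start overlap in CACGTG. Of 27305 promoters of the same length, 11763 (43.1%) held at least 1 match, so the motif is common and its presence says nothing on its own.

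LGALS3BP, a secreted galectin ligand induced by interferon, read -4.79 in 2D and -1.35 in 3D. It was higher in 3D in all 7 other lines as well, by 0.50 to 1.94, and the H23 difference of 3.43 lay above them. SELENOP, the plasma selenium carrier, went from -0.96 to 2.15, beside differences of 0.26 to 2.21. SLC2A10, a glucose transporter family member, went from -0.28 to 2.37, beside 0.01 to 2.02. UPK1A, a uroplakin, went from 0.99 to 3.47, and H1703 had a wider difference of 2.84. For these genes H23 shared its direction with the other lines.

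Further genes were higher in 3D by more in H23 than in any other line, and in several of them 1 or more other lines also differed. ODAD3, a docking protein of ciliary dynein arms, went from 2.32 to 5.41 in H23. The other lines gave -0.23 to 0.65, and limma gave an adjusted p of 0.168 for the contrast of H23 with them. RSPH9, of the ciliary radial spoke, went from -0.88 to 1.79, beside -0.07 to 0.79. PCDH18, a protocadherin, went from -0.23 to 2.39, beside -1.27 to 0.04. SCG2, already high in 2D, went from 6.72 to 9.24, beside -0.17 to 1.74. PAQR5, a membrane progestin receptor, gained 2.92 in H23, 1.55 in A427 and 1.21 in H460, while H358 gave -0.89. ADAMTSL4, a microfibril-associated protein, gained 2.70, beside -0.19 to 1.40 in H1703. TCEA3, an elongation factor, gained 2.65, beside -0.16 to 1.47 in H358, with 6 of 7 lines in the same direction. PCOLCE, an enhancer of procollagen processing, went from 1.0 to 2.87, beside -0.04 to 0.43 elsewhere. The H23 difference lay above all 7 other lines in each of these, as in 15.1% of all genes. The genes were picked with their H23 values known, so this is a description.

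Among genes lower in 3D, THBS1 stood apart from the other lines. It encodes thrombospondin-1, a matrix glycoprotein and target of YAP and TGF-beta. It read 0.21 in 2D and -2.82 in 3D, a difference of -3.03, while the other lines gave -0.25 to 0.85. All 4 of its 4 probe sets were lower in 3D, by -1.71 to -3.76. PLAU, the urokinase protease, went from 2.66 to -0.35, beside -1.31 to 1.35. ID2, an inhibitor of helix-loop-helix factors and a target of BMP signals, went from -0.08 to -2.67, beside -0.82 to 2.08. NR4A3, an orphan nuclear receptor, went from 5.09 to 2.60, beside -1.04 to 1.07. DHRS2, a mitochondrial reductase, gave -2.78 beside -1.27 to 0.49. These differences lay below those of all 7 other lines, as in 9.41% of all genes, but the genes were picked for low H23 values.

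MATR3, a nuclear matrix protein, gave the lowest value, -3.33, with H358 at -2.65. The values of MATR3, SYDE2, CYP26B1, EMSLR, SMG1P5, LRP2 and NR4A3 each rest on 1 probe set. NEXN, an actin filament protein, gave -2.95 on 2 of 2 probe sets, with H1437 at -2.08. SYDE2, a GTPase-activating protein, gave -2.76, with H661 at -2.60. CYP26B1, which degrades retinoic acid, gave -2.45, with H358 at -2.10. EMSLR, a long noncoding RNA, gave -2.47, beside -1.32 to 0.07 elsewhere. SMG1P5, a pseudogene of the kinase SMG1, gave -2.76 and LOC100190986, a noncoding transcript, -2.66. Both can share probes with near-identical copies, so their values are uncertain. DAB2, an endocytic adaptor, went from 2.97 to 1.58 while the other lines gave -0.01 to 0.36, and 4 of 4 probe sets were lower. Its partner in receptor uptake, LRP2, went from 3.69 to 2.05, beside -0.07 to 0.71.

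**Figure D5:**
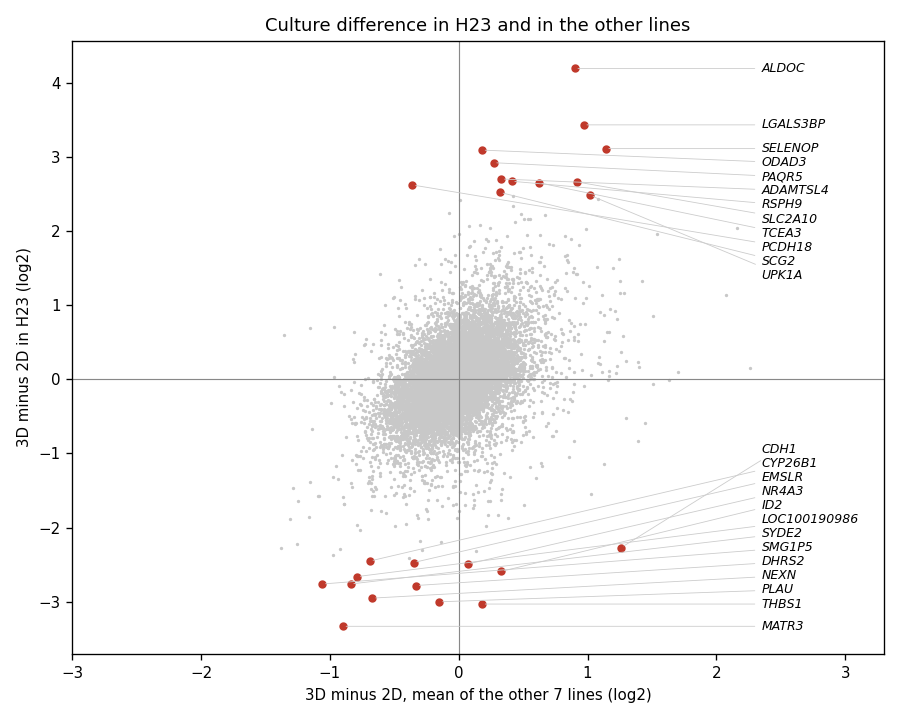
3D minus 2D in H23 (vertical, log2) against the mean of the same difference in the other 7 lines (horizontal, log2) for 14113 genes, with the 24 named genes and CDH1 in red. ALDOC lies highest at 4.19, THBS1 lies at -3.03 with other lines near 0, and CDH1 lies at the lower right, with -2.27 in H23.

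CDH1, the E-cadherin of epithelial junctions, ran against every other line. It read 2.46 in H23 2D and 0.19 in 3D, a difference of -2.27. The other lines gave 0.05 in H1703, 0.28 in H460, 0.38 in H1437, 0.80 in A427, 1.0 in H358, 2.40 in A549 and 3.94 in H661. All 7 were above 0, though H1703 barely so, and limma gave an adjusted p of 0.884 for H23 against them. It rests on the 1 probe set of CDH1 that passed the filter. Of 1237 genes with 1 sign in all 7 other lines, H23 had the opposite sign in 178 (14.4%). PLCXD2 (-1.05 in H23) and NNMT, nicotinamide N-methyltransferase (1.11), were the others that passed 2-fold.

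Replication-dependent histone genes gave the lowest list mean of the 8 lines, -0.92 beside -0.40 to 1.0. In 6 of 10 the H23 difference lay below all 7 other lines, where 9.41% of all genes did. H4C8 gave -2.32, H2AC8 -1.87 and H2BC4 -1.33. These genes are made without a poly-A tail, and probe sets can be shared between near-identical copies.

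Targets of YAP, TEAD and SRF, factors that respond to spreading and actin tension, also had their lowest mean in H23, -0.46 beside -0.32 to 0.23. Of 21 genes, 8 lay below all 7 other lines, where 9.41% of all genes did. Of the 21, 5 were above 0, beside 54.2% of all genes. TPM1, a tropomyosin, gave -1.45. The matricellular genes CCN2 and CCN1 gave -1.43 and -1.06, and the lowest other line gave -1.63 for CCN2. TEAD1 gave -1.02. WWTR1, which encodes TAZ, gave -0.32 while all 7 other lines were above 0 (0.10 to 1.43). The TGF-beta list, which shares CCN2, averaged -0.45, and JAG1, a NOTCH ligand, gave -1.77 on 5 of 5 probe sets. MET, a growth factor receptor, gave -1.51.

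Sterol genes were higher in 3D in H23. Cholesterol synthesis averaged 0.46 beside -0.41 to 0.27 in the other lines, with 15 of 18 above 0 where 54.2% of all genes were. In 8 of 18 the difference lay above all 7 other lines, where 15.1% of all genes did. INSIG1, the sterol-regulated retention factor of SREBP, went from -1.51 to 0.38 on 3 of 3 probe sets, beside -0.66 to 1.13. TM7SF2, a sterol reductase, gave 1.58 and STARD4, a sterol carrier, 1.28. Fatty acid synthesis averaged 0.38, with ACSS2, an acetyl-CoA synthetase, at 1.30 and SCD, the stearoyl-CoA desaturase, at 1.09. MSMO1, low in H23 against the other lines, was 0.87 higher in 3D.

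Glycolysis averaged 0.57 in H23, above the other lines (0.07 to 0.47), and the mean was pulled by ALDOC, since the median was 0.31. ENO2, the neuronal enolase, gave 1.82, GPI 1.08 and HK1 1.0, and HK2 gave -0.75. The hypoxia list averaged 0.51, beside 0.46 to 0.89 elsewhere with a median of 0.74. H23 was thus the second from the lowest of the 8 lines (2 to 5 over the scalings and probe set choices). Of the 25 hypoxia genes, 20 were above 0 in H23, where 54.2% of all genes were. ATF4 targets averaged 0.13 in H23, above a range of -1.39 to 0.05. In 9 of 31 the difference lay above all 7 other lines, where 15.1% of all genes did. ASNS, the asparagine synthetase, gave 0.46 and CHAC1, a glutathione-degrading enzyme, 0.69, with medians of -0.62 and -0.68 elsewhere.

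Proliferation genes were lower in 3D in H23 as in most lines. Of 28 mitosis genes, 1 was above 0, where 54.2% of all genes were. The mitosis mean of -0.49 lay within -1.01 to 0.07. AURKB gave -1.03 and PLK1 -1.01. Of 33 replication genes, 4 were above 0. Ribosome biogenesis averaged -0.46, with 1 of 20 above 0, and UTP20, of the small-subunit processome, gave -1.35. Interferon-stimulated genes averaged 0.45, with 7 of 23 at least 2-fold higher, where 2.57% of all genes were. Among the 7 were IFITM3 at 1.23 and STING1 at 1.24. The epithelial list averaged -0.04, with 13 of 22 above 0, beside 54.2% of all genes. In 5 of the 22 the H23 difference lay below all 7 other lines, where 9.41% of all genes did, and KRT8 (-1.26) and KRT7 (-1.05) were at least 2-fold lower beside CDH1.

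Genes called in the other 7 lines alone, a fit without any H23 array, were then read in H23. These were 203 of 14113 genes (1.44%), 66 higher and 137 lower in 3D. H23 had the same sign in 62 of the 66 and 128 of the 137, 190 in all (93.6%), beside 66.5% of all genes. Median differences were 0.53 in H23 and 0.61 in the other lines for the higher genes, and -0.44 and -0.55 for the lower. The number called was fragile. It was 4 without A549, 1 without H460, 2 without H661, and 0 without H358, without H1437 or without H1703, and 213 without A427.

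ARRDC4, a glucose-induced arrestin, was higher by 2.16 ± 0.38 in the other lines (SE, n = 7 lines; limma adjusted p = 0.0439), and by 2.04 in H23. IFITM1, an interferon-induced membrane protein, was higher by 1.54 ± 0.30 and by 1.96 in H23. FAM162A, a mitochondrial protein induced by hypoxia, was higher by 1.20 ± 0.24 and by 1.5 in H23. BNIP3L, a mitophagy receptor, was higher by 1.23 ± 0.13 elsewhere and by 0.81 in H23, below every other line.

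On the low side, MRTO4, a ribosome assembly factor, gave -1.38 ± 0.27 in the other lines and -2.28 in H23. ALYREF, an mRNA export adaptor, gave -1.26 ± 0.23 and -2.22. GNL3L, a nucleolar GTPase, gave -1.25 ± 0.17 and -1.65. CENPI, a centromere protein, gave -1.15 ± 0.11 and -1.39. H23 reached 2-fold in the same direction in 40 of the 203, and the 13 genes without the same sign differed by at most 0.28 in H23 (EEF1A2, an elongation factor).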

How the data were processed

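The authors deposited 1 log2 ratio per probe set and array, for 54675 probe sets. In 63.5% of probe sets the ratio had a median of 1 over the 16 arrays (log2 within 0.001 of 0), and in the other 19948 the median lay under it. The lowest ratio, 0.01, was held by 297 values. No label or file header names the software, normalisation or build behind these values. Phenol/chloroform extraction is stated per the labels' protocols. Arrays have no read depth, and their number limits precision.

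Genes came from the platform annotation, updated through the RefSeq table of GRCh38.p14. Of the probe sets, 41097 had 1 gene symbol and were used, 1801 had several and 11777 none. Probe sets of a gene were averaged. For identity, a probe set had to reach its reference in at least 2 of 16 arrays (15952 genes). For culture its median had to reach it (14113 genes), and the runs of neighbours used that filter too. This tests genes that H23 alone expresses in the first case and leaves them out in the second.

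Identity used limma 3.58.1 under R 4.3.3, with lmFit and trended eBayes, on 8 line means, H23 against 7. The culture difference of H23 against 7 lines, and that of the 7 lines against 0, were fitted alike on 1 difference per line. The trend followed the mean level. Calls used a Benjamini-Hochberg adjusted p under 0.05 over all genes tested. With 1 sample per line and culture, p-values measure the spread between lines, and H23 is assumed to vary like the others. The fits were tested on simulated data.

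Members and the 47 gene lists were chosen with earlier results of these data known, and 1 list is not reported here. Named genes were the 12 highest and 12 lowest called identity differences outside the other arrays' range, completed by size where fewer were called. To these came the 12 highest and lowest culture differences and up to 4 members of each list per measure. SCG2, CCL20, CCL5, GATA3, NOS3, CGA, the culture genes PCOLCE, DAB2, LRP2, CDH1, PLCXD2, NNMT and WWTR1, and several list members were chosen after their values were seen. Figures were drawn with matplotlib 3.10.9.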

Additional observations from a re-analysis of the deposited data

Results flagged for a closer look

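The 3D minus 2D difference of the 18S controls in H23 (-3.45) lay far from those of the other 7 lines, with a gap of 0.546 of the whole range, past Dixon's 95% critical value for 8 lines. That of RNA45SN5 (-1.63) did so with a gap of 0.591. The 18S difference was already known when H23 was taken up, and RNA45SN5 is the precursor of the same RNA, so both are given as a description. The mean level of the endothelial list in H23 (0.35) had a gap of 0.666, and its mean 3D minus 2D difference (0.44) a gap of 0.529. Both endothelial values rest mainly on ERG and EGFL7. Such gaps were sought in 121 sets of 8 lines and found in 9, of which 4 were in H23, 3 in H661 and 1 each in H358 and H460. Chance alone gives about 1 in 20.

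The 3D minus 2D differences of CDH1 (-2.27), PLCXD2 (-1.05) and NNMT (1.11) in H23 had the opposite sign to those of all 7 other lines. PLCXD2 ran from 0.09 in A427 to 1.84 in H358 elsewhere, and NNMT from -1.18 in H1703 to -0.15 in H358. Within H23 these rest on 1 array per culture, and by limma the contrast of H23 with the other lines was not called for any of them (adjusted p = 0.884, 0.624 and 0.614).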

How the results depend on the processing

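The 38 identity calls became 2 with the filter on the median, 16 with the 18S covariate, 82 with no filter and 73 with quantile normalisation, and 40 to 54 when 1 other line was left out. They were 27 with robust eBayes and 51 with dim values set to the reference. For H23 against the other lines in culture, 0 calls became 12 with the filter on at least 2 of 16 arrays, 103 with no filter and 25 with quantile normalisation, and stayed 0 when 1 line was left out and with the 18S covariate. The 203 calls in the other 7 lines, 1.44% of genes tested, became 0.0% with the filter on at least 2 of 16 arrays and with no filter (3061 and 3399 at an unadjusted p under 0.05 by limma). They became 2.54% with the 18S covariate (91 higher and 267 lower), 0.593% or 67 genes when probe sets of suffix s or x were dropped, and 0.574% or 81 genes without a trend. With a trend on the mean difference, an alternative added after the data were seen, they became 0.0%. Leaving out 1 line gave 0.0% to 1.51%, or 0 to 213 genes. The 655 genes past 2-fold in H23 became 987 with quantile normalisation. The causes were not tested. Of 226 genes followed for identity, 29 changed sign under some alternative, none of them among the 38 called, and of 252 followed for culture 7 did. Over the scalings and probe set choices, the identity rank of H23 among the 8 lines stayed within 1 rank in 27 of 46 lists and moved by 3 or more in 8, most in ribosomal proteins (2 to 7 from the lowest). The culture rank stayed within 1 in 25 and moved by 3 or more in 11, most in cancer-testis antigens (3 to 8), while histones and the YAP, TEAD and SRF targets were lowest throughout. The culture fits are paired by cell line, since each difference is taken within a line, and replicate numbers add no further pairing.

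Precision is limited by 1 array per culture, by ratios with no stated normalisation, and by dim genes whose other arrays lie under the reference, where the spread between lines is small.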
